A study of Rattus norvegicus with 9 samples.

Results

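Transcripts of 7 astrocyte genes were followed through all 9 libraries of a rat brain series: the cytoskeletal genes Gfap and Vim, the water channel gene Aqp4, the calcium-binding protein gene S100b, the gap junction gene Gja1, and the glutamate transporter genes Slc1a2 and Slc1a3. They were chosen by identifier, under a rule that uses no measured value, and are 7 of the 32883 genes listed. The choice was made with earlier results of these libraries known. All 7 were found and all 7 were among the 15051 genes tested, which reached at least 1 FPKM (fragment numbers scaled to transcript length and sequencing depth) in at least 3 libraries. The deposited table holds Ensembl identifiers only, so each gene name comes from the rule that defined the set, which pairs Gfap with ENSRNOG00000002919, Vim with ENSRNOG00000018087, Aqp4 with ENSRNOG00000016043, S100b with ENSRNOG00000001295, Gja1 with ENSRNOG00000000805, Slc1a2 with ENSRNOG00000005479 and Slc1a3 with ENSRNOG00000016163.

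The libraries came from brain tissue of rats in 3 groups of 3. Sham rats had the operation without the occlusion (samples 4B, 5B and 9A). MCAO rats had an occlusion of the middle cerebral artery, the vessel whose blockage models stroke (3B, 6B and 7A), and PN rats had the same occlusion and were given Panax notoginseng, a herbal medicine (3A, 6A and 7A). The series title speaks of ischaemia followed by reperfusion. No source used here gives the strain, age, dose, brain region, hemisphere or sampling time. The labels do not say whether the samples of a group are separate animals, so each p-value reflects the spread of these libraries alone, part of which may be technical.

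Astrocytes take up the glutamate that neurons release, through the sodium-coupled carriers GLT-1 (encoded by Slc1a2) and GLAST (encoded by Slc1a3), and so keep it from reaching toxic levels. They are joined into networks by connexin 43 channels (Gja1) and hold the water channel aquaporin 4 (Aqp4) in the endfeet that wrap blood vessels. After injury, astrocytes become reactive and build up the intermediate filament proteins GFAP and vimentin, while loss of glutamate uptake is a known hazard of ischaemic brain. Vim is also made by vessel and ependymal cells, and S100b by some oligodendrocytes.

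The whole series set limits on these genes. The FPKM sum of a library ran from 387893 to 445693, the depth in reads is unknown, and steps among the low values put the deepest library at 1.33 times the depth of the shallowest. That ratio, of PN 7A to MCAO 3B, is rough, since it rests on 14 low values. With limma on log2(FPKM + 1), few of all genes tested passed an adjusted p of 0.05: 1 between MCAO and sham, 1 between PN and MCAO and 3 between PN and sham. Column names of the table begin alike within MCAO, but sham 9A and PN 3A begin unlike the other libraries of their groups, and no label explains these beginnings. The values of the 7 genes followed group only in part: 3 of the 9 libraries had their nearest neighbour within their own group. The nearest pair of all 36 was sham 9A and PN 7A, in which the largest difference was 1.47-fold (Vim). Markers of neurons, microglia, vessels and brain regions were not read, since no identifier could be paired with a symbol, so only the astrocyte genes speak to the labelled tissue: each was above 16 FPKM in every library.

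The main pattern lay in the glutamate transporters. Slc1a2 and Slc1a3 were each higher in all 3 MCAO libraries than in any of the 6 sham and PN libraries, yet no difference of either gene passed the adjusted threshold. By group mean, Slc1a2 was 3.01-fold higher in MCAO than in sham and 2.98-fold higher than in PN, and Slc1a3 was 2.79-fold and 5.15-fold higher. The filament genes Gfap and Vim had higher means in MCAO and in PN than in sham, with wide spreads that overlapped. S100b and Gja1 varied less, and Aqp4 had a mean of 92.7 ± 47.5 FPKM in MCAO against 94.4 ± 58.8 FPKM in sham (SD, n = 3 each).

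Slc1a2 encodes the carrier responsible for most glutamate uptake in the forebrain. In sham it was at 59.5 FPKM (4B), 137 FPKM (5B) and 172 FPKM (9A). In MCAO it was at 307 FPKM (3B), 361 FPKM (6B) and 442 FPKM (7A), and in PN at 41.2 FPKM (3A), 203 FPKM (6A) and 128 FPKM (7A). The MCAO libraries were the 3 highest of the 9, and the sham and PN values ran through each other. Group means were 123 ± 57.5 FPKM in sham, 369.9 ± 67.6 FPKM in MCAO and 124 ± 80.9 FPKM in PN (SD, n = 3 each). In bulk tissue such a difference cannot be split into more or fewer astrocytes and more or less transcript per astrocyte, which holds for every value that follows.

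Slc1a3 encodes the other main astrocytic carrier, which is also abundant in cerebellum and retina. It was at 162 FPKM (4B), 46.3 FPKM (5B) and 65.7 FPKM (9A) in sham. In MCAO it was at 289.5 FPKM (3B), 264 FPKM (6B) and 211 FPKM (7A), and in PN at 17.0 FPKM (3A), 78.6 FPKM (6A) and 52.9 FPKM (7A). Again the MCAO libraries were the 3 highest, with sham 4B next. Means were 91.4 ± 62.1 FPKM in sham, 255 ± 39.9 FPKM in MCAO and 49.5 ± 30.9 FPKM in PN (SD, n = 3 each). Being the 3 highest of 9 was true of 2.76% of all genes tested in MCAO, and of 2 of these 7 genes.

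**Figure D1:**
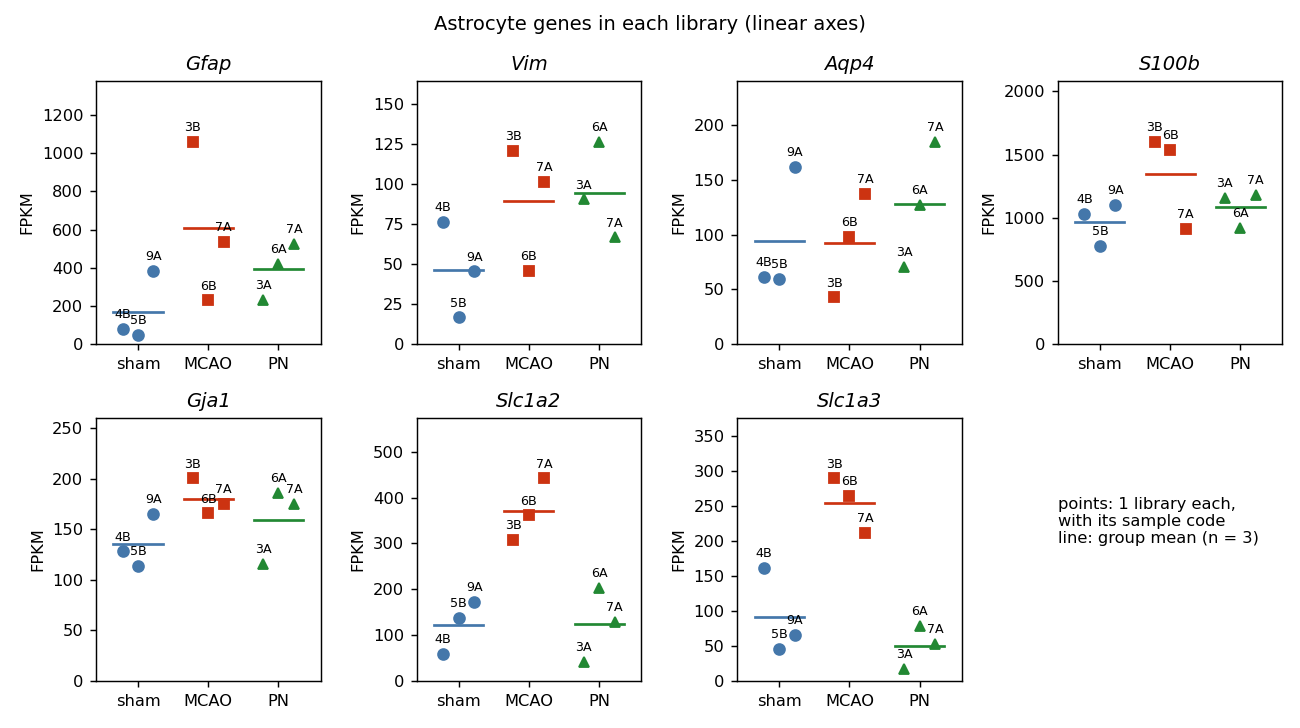
FPKM of the 7 astrocyte genes in each library, on linear axes from 0, with points marked by sample code and a line at each group mean (n = 3). For Slc1a2 and Slc1a3 the 3 MCAO points lie above all other points, for Gfap the groups overlap and range from 50.2 to 1060.4 FPKM, and for Aqp4 the MCAO and sham means nearly coincide.

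Both transporter differences had intervals that excluded 0 but did not pass after adjustment over all genes tested. In MCAO against sham the log2 difference of Slc1a2 was 1.70 (SE 0.56, 95% interval 0.45 to 2.95; limma, adjusted p = 0.369), higher in 3 of 3 MCAO libraries. For Slc1a3 it was 1.66 (SE 0.56, 95% interval 0.39 to 2.93; limma, adjusted p = 0.374). By size these were numbers 28 and 31 from the highest among 15051 differences. The exact permutation test of 3 libraries against 3 gave p = 0.1 for each gene (two-sided), the smallest value this design allows.

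In PN against MCAO the same genes were lower in 3 of 3 PN libraries. The log2 difference was -1.82 for Slc1a2 (SE 0.56, 95% interval -3.08 to -0.57; limma, adjusted p = 0.271). For Slc1a3 it was -2.58 (SE 0.56, 95% interval -3.85 to -1.31; limma, adjusted p = 0.18). Only 3 of all genes tested had a lower difference than Slc1a3, and by limma's p it was number 97. Its adjusted p was 0.0268 with array weights, the 1 setting under which any of the 7 genes passed. Those weights put 6.19 on PN 7A and 0.345 on PN 3A, and with PN 7A left out the adjusted p was 0.601. MCAO libraries enter both comparisons, so the 2 sets of differences are not independent of each other.

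PN and sham were not separated by the transporters. The log2 difference of PN minus sham was -0.13 for Slc1a2 (SE 0.56, 95% interval -1.38 to 1.13; limma, adjusted p = 0.993), with a sign that turned when single libraries were left out. For Slc1a3 it was -0.91 (SE 0.56, 95% interval -2.18 to 0.36; limma, adjusted p = 0.974), and it ranged from -1.36 without PN 6A to -0.29 without PN 3A, with -0.40 without sham 4B. The interval of Slc1a2 allows a 2-fold difference in either direction, and that of Slc1a3 allows a level in PN 2-fold lower but not 2-fold higher than in sham.

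The letter that ends the sample codes is A in 5 libraries, all 3 of PN among them, and B in 4, and its meaning is not given. Among the B libraries, Slc1a2 was at 307 and 361 FPKM in MCAO against 59.5 and 137 FPKM in sham, and Slc1a3 at 289.5 and 264 FPKM against 162 and 46.3 FPKM. Among the A libraries, MCAO 7A was above sham 9A and all 3 PN libraries for both genes. MCAO was thus above sham at either letter and above PN at the letter A, with 1 to 3 libraries on a side. No PN library has the letter B, so MCAO and PN were compared at the letter A alone, where MCAO has 1 library (7A). With the letter as a covariate, PN minus MCAO was -2.27 for Slc1a2 and -2.31 for Slc1a3 (limma, adjusted p = 0.584 for each). MCAO minus sham was 1.70 and 1.66 as without it (limma, adjusted p = 0.407 and 0.419). MCAO and sham hold the letters A and B in equal numbers, so the covariate could not change that difference. Over all 9 libraries, MCAO also stayed without overlap with sham and with PN after scaling libraries to equal sums or by median of ratios. Without sham 9A and PN 3A, a choice made after the data were seen, the log2 differences of MCAO minus sham were 2.0 (Slc1a2) and 1.53 (Slc1a3), and those of PN minus MCAO were -1.18 and -1.95 (limma, adjusted p from 0.232 to 0.703).

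Set against other astrocyte genes of the same library, Slc1a2 kept this order relative to Aqp4 and Gja1 but not to Gfap. The ratio of Slc1a2 to Aqp4 FPKM was 3.22 to 7.20 in MCAO, 0.968 to 2.30 in sham and 0.584 to 1.59 in PN. The ratio of Slc1a2 to Gja1 FPKM was 1.53 to 2.53 in MCAO, 0.465 to 1.20 in sham and 0.356 to 1.09 in PN. The ratio of Slc1a2 to Gfap FPKM, at 0.290 to 1.57 in MCAO, 0.447 to 2.73 in sham and 0.177 to 0.480 in PN, overlapped between all groups. For Slc1a3 over Gja1 the MCAO range of 1.21 to 1.60 met the sham range of 0.398 to 1.27, through sham 4B, and lay above the PN range of 0.147 to 0.423. For Slc1a3 over Aqp4 the ranges were 1.54 to 6.78 in MCAO, 0.405 to 2.64 in sham and 0.241 to 0.617 in PN, again with only sham 4B reaching into MCAO. For Slc1a3 over Gfap the MCAO range of 0.273 to 1.15 lay within the sham range of 0.171 to 2.06 and above the PN range of 0.0729 to 0.186. Such ratios do not depend on how libraries are scaled, and show that these genes differed unequally between libraries.

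The balance between both carriers also shifted from library to library. The ratio of Slc1a2 to Slc1a3 FPKM was 2.42, 2.58 and 2.42 in PN 3A, 6A and 7A, although their Slc1a2 level varied 4.93-fold. It was 1.06, 1.36 and 2.09 in MCAO 3B, 6B and 7A, all below PN (exact permutation p = 0.1, two-sided, the smallest possible). All PN libraries have the letter A, which in MCAO only 7A has, the library nearest to PN in this ratio. A part of the letter in this gap was not tested. In sham the ratio was 2.96 (5B), 2.61 (9A) and 0.367 (4B), so 4B alone held more Slc1a3 than Slc1a2. The plot of Slc1a3 against Slc1a2 shows this library apart from a line of the other sham and PN libraries.

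**Figure D2:**
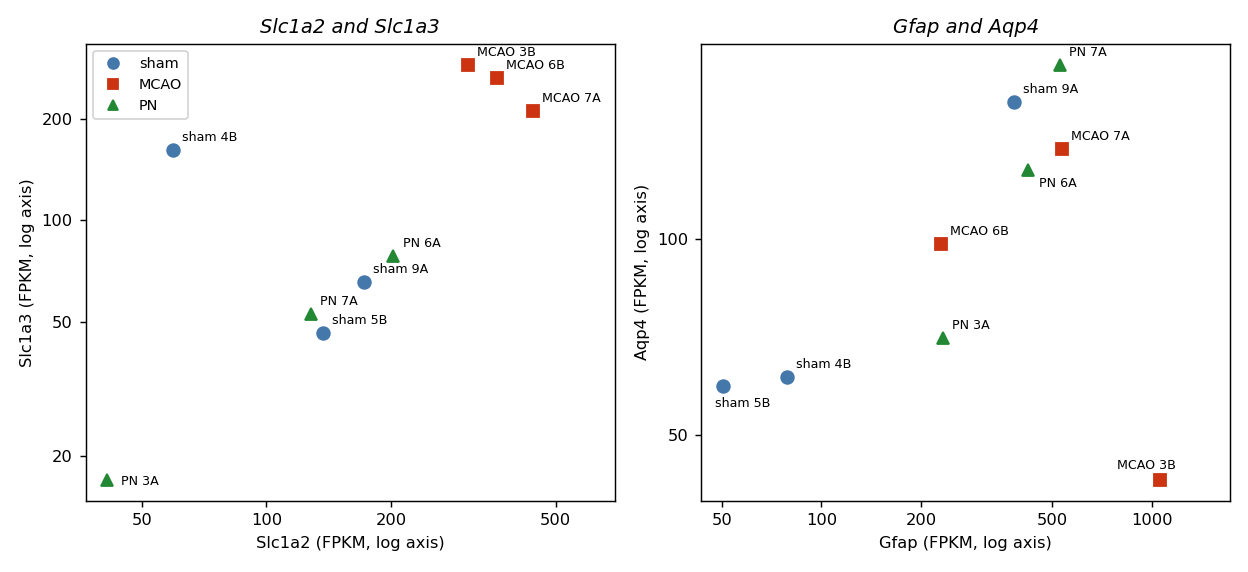
Slc1a3 against Slc1a2 (left) and Aqp4 against Gfap (right) in the 9 libraries, in FPKM on log axes, with the colour and shape of a point giving the group. On the left the MCAO libraries lie at the upper right and sham 4B stands off the run of sham and PN libraries. On the right MCAO 3B has the highest Gfap (1060.4 FPKM) and the lowest Aqp4 (42.7 FPKM).

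Gfap, which encodes the filament protein by which reactive astrocytes are usually recognised, had the widest range of the set. It was at 78.8 FPKM (4B), 50.2 FPKM (5B) and 384 FPKM (9A) in sham. It was at 1060.4 FPKM (3B), 229.7 FPKM (6B) and 536 FPKM (7A) in MCAO, and at 233 FPKM (3A), 422 FPKM (6A) and 527 FPKM (7A) in PN. Sham 4B and 5B were the lowest of all, while sham 9A lay among the MCAO and PN libraries, above MCAO 6B and PN 3A. The highest value was 21.1 times the lowest, a range that 2.11% of the genes tested reached, where the median gene had 2.33.

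Means of Gfap were 171 ± 185 FPKM in sham, 609 ± 420.1 FPKM in MCAO and 394 ± 149 FPKM in PN (SD, n = 3 each). MCAO minus sham was 2.13 on the log2 scale (SE 0.76, 95% interval 0.42 to 3.83; limma, adjusted p = 0.392), number 8 from the highest of all genes tested, with 8 of the 9 library pairs in that direction. PN minus sham was 1.68 (SE 0.76, 95% interval -0.02 to 3.39; limma, adjusted p = 0.974). PN minus MCAO was -0.44 (SE 0.76, 95% interval -2.15 to 1.26; limma, adjusted p = 0.829), and without MCAO 3B it was 0.09. Single libraries moved these values: MCAO minus sham was 2.99 without sham 9A, 1.54 without sham 5B and 1.60 without MCAO 3B, and PN minus sham was 2.55 without sham 9A and 1.09 without sham 5B. When the A or B of the library names was a covariate, PN minus sham was 0.78 and PN minus MCAO was -1.35. None of these passed (limma, adjusted p from 0.392 to 1.0).

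Vim, the gene of the filament protein vimentin, was at 76.7 FPKM (4B), 16.7 FPKM (5B) and 45.5 FPKM (9A) in sham. In MCAO it was at 121 FPKM (3B), 45.6 FPKM (6B) and 101 FPKM (7A), and in PN at 90.5 FPKM (3A), 127 FPKM (6A) and 66.8 FPKM (7A). Sham 5B was far below every other library, sham 9A was just below the lowest MCAO library, and only sham 4B reached into the ranges of MCAO and PN. The log2 difference from sham was 1.06 in MCAO (SE 0.54, 95% interval -0.15 to 2.27; limma, adjusted p = 0.495) and 1.21 in PN (SE 0.54, 95% interval 0.003 to 2.41; limma, adjusted p = 0.974). Without sham 5B these were 0.47 and 0.62. PN minus MCAO was 0.15 (SE 0.54, 95% interval -1.06 to 1.35; limma, adjusted p = 0.925).

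The filament genes did not keep a fixed ratio. Gfap over Vim FPKM ran from 1.03 in sham 4B to 8.77 in MCAO 3B, and sham 9A (8.43) and PN 7A (7.89) lay close to the upper end. Gfap over Aqp4 FPKM was 24.8 in MCAO 3B and at most 3.90 in every other library.

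Aqp4, the water channel gene of the perivascular endfoot, was at 61.4 FPKM (4B), 59.5 FPKM (5B) and 162 FPKM (9A) in sham. It was at 42.7 FPKM (3B), 98.3 FPKM (6B) and 137 FPKM (7A) in MCAO, and at 70.5 FPKM (3A), 127 FPKM (6A) and 185 FPKM (7A) in PN. No group stood apart. Libraries of the letter A held 70.5 to 185 FPKM and those of the letter B 42.7 to 98.3 FPKM. Among those of the letter A, the PN values ran from 70.5 to 185 FPKM, on both sides of MCAO 7A and sham 9A. MCAO minus sham was -0.01 on the log2 scale (SE 0.53, 95% interval -1.21 to 1.18; limma, adjusted p = 0.995), an interval that allows a 2-fold difference either way, and its sign turned with each of the 3 other scalings. PN minus MCAO was 0.50 (SE 0.53; limma, adjusted p = 0.702) as reported and -0.32 with the letter as a covariate. Of its variation on the log2 scale, 11.6% lay between groups, against a median of 29.0% over the genes tested.

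Gja1, which encodes connexin 43, was among the steadiest genes of the set, at 128 FPKM (4B), 114 FPKM (5B) and 165 FPKM (9A) in sham. It was at 200.2 FPKM (3B), 166 FPKM (6B) and 175 FPKM (7A) in MCAO, and at 116 FPKM (3A), 186 FPKM (6A) and 175 FPKM (7A) in PN. MCAO and sham did not overlap, but by a gap of under 1 FPKM: the lowest MCAO value was 165.6 FPKM (6B) and the highest sham value 164.9 FPKM (9A). The log2 difference of MCAO minus sham was 0.42 (SE 0.22, 95% interval -0.08 to 0.92; limma, adjusted p = 0.505). The interval does not reach a 2-fold change. Its highest value was 1.76 times its lowest, and 74.6% of genes tested ranged at least as widely.

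S100b was the most abundant of the 7 genes in 9 of 9 libraries and ranked between number 8 and number 22 of all genes listed. In sham it was at 1031 FPKM (4B), 776 FPKM (5B) and 1102 FPKM (9A). In MCAO it was at 1601 FPKM (3B), 1535 FPKM (6B) and 911 FPKM (7A), and in PN at 1154 FPKM (3A), 922 FPKM (6A) and 1179 FPKM (7A). MCAO 3B and 6B were above all others, while MCAO 7A was below all but sham 5B. MCAO minus sham was 0.45 on the log2 scale (SE 0.28, 95% interval -0.17 to 1.07; limma, adjusted p = 0.565), and PN minus MCAO was -0.28 (SE 0.28, 95% interval -0.90 to 0.34; limma, adjusted p = 0.677).

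FPKM is scaled to length, so levels can be ordered between genes. Over the 9 libraries the mean was 1135 ± 278 FPKM for S100b, 391 ± 307 FPKM for Gfap, 206 ± 137 FPKM for Slc1a2, 158 ± 31.3 FPKM for Gja1, 132 ± 102 FPKM for Slc1a3, 105 ± 50.4 FPKM for Aqp4 and 76.7 ± 36.9 FPKM for Vim (SD over all 9 libraries). S100b was above Gfap in all 9. Each of the other neighbours in this order changed places in some library, Gfap being above Slc1a2 in 7 libraries and Slc1a3 above Aqp4 in 4, so their order lies within the spread between libraries. By group mean, Gja1 was above Slc1a2 in sham (136 against 123 FPKM) and PN (159 against 124 FPKM) but not in MCAO (180.2 against 369.9 FPKM). Single libraries did not all follow these means. The ratio of Slc1a2 to Gja1 FPKM was 0.465 (4B), 1.20 (5B) and 1.04 (9A) in sham. In PN this ratio was 0.356 (3A), 1.09 (6A) and 0.734 (7A). Slc1a3 had the lowest mean of the 7 in PN (49.5 FPKM). Together the 7 genes held 0.304% to 0.520% of the summed FPKM in sham, 0.648% to 0.901% in MCAO and 0.386% to 0.572% in PN, of which S100b made up 36.2% to 67.0%.

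Counted as a set, 0 of 7 genes passed the adjusted threshold in any comparison (limma, settings as reported). In MCAO against sham, 0.00664% of all genes tested passed it, 6 of the 7 had a higher mean in MCAO, and 3 of them (Gfap, Slc1a2, Slc1a3) were higher at an unadjusted p under 0.05, where 4.87% of all genes were. The groups did not overlap in 3 of 7 (Gja1, Slc1a2, Slc1a3, all higher in MCAO), against 8.59% of all genes. The median log2 difference was 1.06 over the 7 and -0.01 over all genes. The set was chosen with earlier results of these libraries known, so these shares are a description and no test. The count of 3 depended on single libraries. It was 1 (Slc1a2) without sham 5B, 2 (Slc1a2, Slc1a3) without MCAO 3B and 2 without sham 4B, where Slc1a3 and Vim were at that level and Gfap and Slc1a2 were not. It was 4 without sham 9A, MCAO 6B, MCAO 7A or PN 3A, with sham 9A and PN 3A both left out, and with array weights.

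In PN against MCAO, where 0.00664% of all genes passed the adjusted threshold, 5 of the 7 were lower in PN. Those at an unadjusted p under 0.05 were 2 of 7 (Slc1a2, Slc1a3), both lower, where 4.52% of all genes were lower at that level. These 2 did not overlap between groups, against 6.69% of all genes lower without overlap. The medians were -0.28 over the 7 and 0.07 over all genes. In PN against sham, where 0.0199% of all genes passed, the only one at an unadjusted p under 0.05 was Vim, against 3.4% of all genes higher at that level, and it did not reach that level with a pseudocount of 0.1 or 0.5 or with any of the 3 other scalings. None of the 7 was without overlap between PN and sham, against 8.71% of all genes, and the medians were 0.21 and 0.04.

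**Figure D3:**
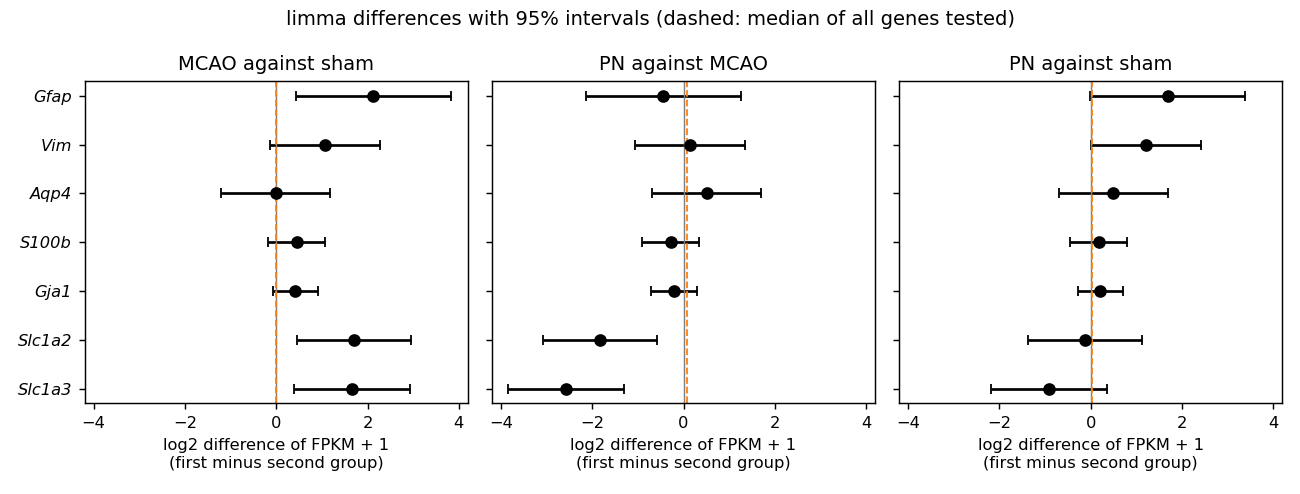
Log2 differences of FPKM + 1 between groups for the 7 genes, with 95% intervals from limma (9 libraries in 1 fit), a solid line at 0 and a dashed line at the median of all genes tested. In MCAO against sham the intervals of Gfap, Slc1a2 and Slc1a3 lie above 0, and in PN against MCAO those of Slc1a2 and Slc1a3 lie below 0, before any adjustment for the number of genes.

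Spread within groups set what could be seen. The SD within groups on the log2 scale was 1.14 for Gfap, 0.85 for Slc1a3, 0.83 for Slc1a2, 0.80 for Vim and 0.79 for Aqp4, where the median gene tested had 0.32. S100b and Gja1, at 0.32 and 0.28, were like the median gene. Slc1a2 and Slc1a3 varied least within MCAO, where the highest library was 1.44 and 1.37 times the lowest, against 2.89 and 3.50 times in sham and 4.93 and 4.62 times in PN. Group explained 70.5% of the variation of Slc1a3 and 60.0% of that of Slc1a2, shares that 4.90% and 11.4% of the genes tested reached.

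**Figure D4:**
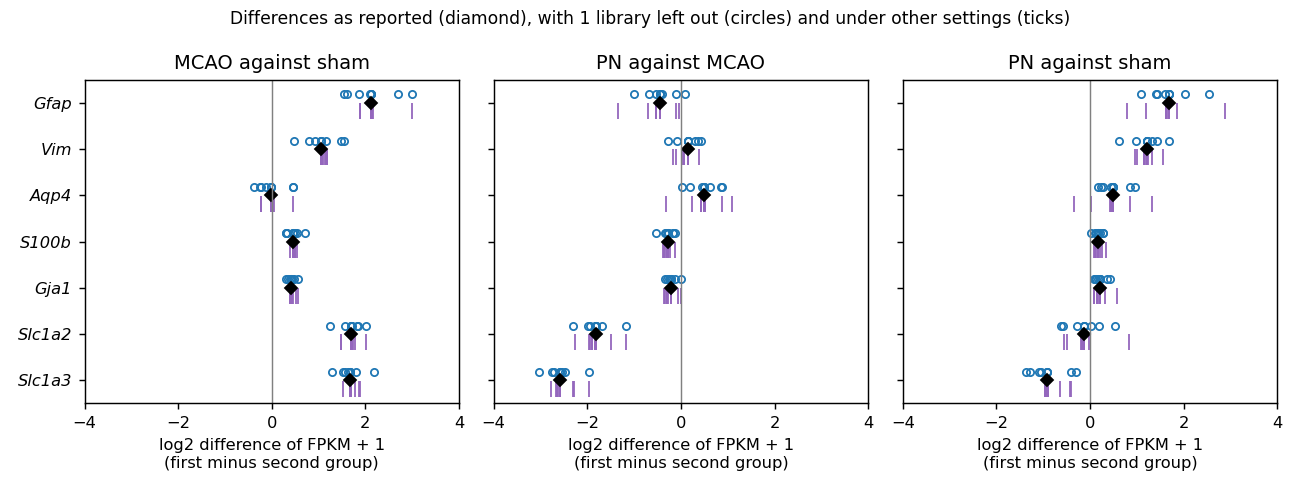
Log2 differences of the 7 genes as reported (diamonds), with each of the 9 libraries left out in turn (circles) and under the other settings tried (ticks), for the 3 comparisons. Circles for a library of the group not compared fall at the reported value by design, as do some ticks. Slc1a2 and Slc1a3 stay on 1 side of 0 in both comparisons with MCAO, while Aqp4 (MCAO against sham) and Vim (PN against MCAO) lie on both sides.

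Across the 9 libraries, 21 pairs of these genes were compared on the log2 scale, and none was related at an adjusted p under 0.05. The closest pair was Gfap and Gja1 (Pearson r = 0.86, exact permutation p = 0.00263, adjusted p = 0.0553; Spearman rho = 0.87, exact permutation p = 0.00451, adjusted p = 0.0947; n = 9). Without sham 4B and 5B, the libraries farthest from the median of Gfap, r was 0.74, and after group means were taken out it was 0.81. Gfap and Vim gave r = 0.69 (exact permutation p = 0.0400, adjusted p = 0.210; rho = 0.65, exact permutation p = 0.0666, adjusted p = 0.233), and 0.53 without the same 2 libraries. Gja1 and Slc1a2 gave a higher r of 0.75 (exact permutation p = 0.0245, adjusted p = 0.209), and 0.71 after group means were taken out. For Slc1a2 with Slc1a3 the MCAO libraries form a cluster of their own, so no pooled value is given. After group means were taken out, r for this pair was 0.28. The genes whose log2 values most resembled those of the transporters over the 9 libraries were ENSRNOG00000007948 for Slc1a2 (r = 0.989) and ENSRNOG00000020640 for Slc1a3 (r = 0.962), neither paired with a name. At r of at least 0.9 there were 312 genes for Slc1a2, 47 for Slc1a3 and 1 for Aqp4. These r values pool the same 9 libraries, so the MCAO cluster enters those of the transporters. The named ones are the highest among all genes tested, given as a description and no test.

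For the 3 genes whose MCAO and sham values did not overlap, the promoter sequence is shown, to set their start regions side by side. Each is the stretch of 250 bases before an annotated transcript start in RefSeq (rat assembly GRCr8), 5′ to 3′ on the strand of the gene, and all 7 genes were matched to that table by symbol. No source used here gives the genome build of the deposited values, so these positions belong to the sequences alone. Capitals mark matches to an E-box (CANNTG) or an AP-1 motif (TGANTCA) on either strand. Where a gene has several starts, the one listed first in that table is shown: Slc1a2 (chr3:109459859-109460108, plus strand), Slc1a3 (chr2:59557809-59558058, minus strand) and Gja1 (chr20:36302314-36302563, plus strand).
Slc1a2: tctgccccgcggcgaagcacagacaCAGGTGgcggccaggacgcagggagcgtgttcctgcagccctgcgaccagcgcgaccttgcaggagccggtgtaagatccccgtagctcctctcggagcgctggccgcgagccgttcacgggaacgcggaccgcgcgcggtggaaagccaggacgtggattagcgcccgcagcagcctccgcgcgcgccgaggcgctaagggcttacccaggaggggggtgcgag
Slc1a3: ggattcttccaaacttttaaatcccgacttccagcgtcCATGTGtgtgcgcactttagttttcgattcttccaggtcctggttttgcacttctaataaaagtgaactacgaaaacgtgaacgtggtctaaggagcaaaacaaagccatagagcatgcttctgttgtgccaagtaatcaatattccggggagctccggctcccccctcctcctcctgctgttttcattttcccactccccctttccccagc
Gja1: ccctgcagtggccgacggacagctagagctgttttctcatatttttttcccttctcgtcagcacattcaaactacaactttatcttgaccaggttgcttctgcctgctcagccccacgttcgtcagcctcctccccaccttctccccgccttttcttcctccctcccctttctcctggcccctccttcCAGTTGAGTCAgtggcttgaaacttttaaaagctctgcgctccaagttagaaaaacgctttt
The Slc1a2 stretch had 71.2% G and C and 33 CG dinucleotides, the Slc1a3 stretch 48.0% and 9, and the Gja1 stretch 51.2% and 8, where the median over 33469 promoters of this length was 51.2% and 5. Each stretch shown holds 1 E-box match, which 65.5% of all promoters have. The other start listed for Slc1a2 had 45.6% G and C, 2 CG dinucleotides and 3 E-box matches. Gja1 alone among the promoters of the 7 genes holds an AP-1 match, found in 6.34% of all promoters, starting 58 bases before the transcript start and overlapping its E-box match. A STAT dimer motif (TTCNNNGAA, in 7.67% of all promoters) and the NF-1 palindrome (in 0.0359%) were in none of the 11 promoters listed for the 7 genes. Matching letters describe these stretches only and were not related to the levels.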

How the data were processed

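The authors deposited 1 table of FPKM, per the file headers, with a column for each of 9 libraries. Tools in the submitters' processing notes are HISAT2, StringTie 1.3.1, Bowtie2 2.2.8 and fastp 0.18.0, with no roles. Build, annotation and strandedness: not given in the sources used here. Rows of Gfap, Aqp4 and Slc1a3 are among 4792 with more than 6 decimals, whose making is not explained. Columns were matched to samples by code, and both 7A columns by the beginning they share with matched columns.

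Genes that reached 1 FPKM in 3 libraries or more were tested as log2(FPKM + 1), which understates changes of low genes. They entered 1 limma fit with a mean-variance trend (limma 3.58.1, R 4.3.3, two-sided, Benjamini-Hochberg over 15051 genes, threshold 0.05). The fit was also run on simulated data, with independent values and the same spread for a gene in every group. Such data cannot show how the fit does where libraries of a group are unlike. Exact permutation tests used Python 3.11.15. All 7 genes are named. The 3 genes most like each were ranked by r, with at most 2 identifiers printed. The genes, lists and tests were chosen with earlier results of these data known. Pathway and cell type lists could not be applied, since 0 identifiers matched a symbol. Alternatives were other pseudocounts, filters, scalings, weights, covariates and libraries left out.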

Additional observations from a re-analysis of the deposited data

How the results depend on the processing

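Under the 22 alternatives of each comparison, and the block for PN against MCAO, Slc1a2 and Slc1a3 kept their direction in MCAO against sham (1.25 to 2.0 and 1.28 to 2.18) and in PN against MCAO (-2.31 to -1.18 and -3.03 to -1.95), and Gfap and Vim kept theirs against sham. Some settings could not move a difference, only its SE and p: other filters, the robust fit, the block and the fit of only the libraries compared. The same holds for leaving out a library of the group not compared, and for the letter in MCAO against sham. No member passed the threshold except Slc1a3 with array weights, which made 1 member in PN against MCAO. In MCAO against sham, Aqp4 turned to 0.0201 (equal sums), 0.00845 (median of ratios), 0.0428 (quantiles), 0.456 (without sham 9A, also with PN 3A left out) and 0.461 (without MCAO 3B). In PN against MCAO, Vim turned to -0.18 (array weights), -0.11 (letter as covariate), -0.27 (without MCAO 6B) and -0.08 (without PN 6A). There Aqp4 turned to -0.32 (letter), Gfap to 0.0872 (without MCAO 3B) and Gja1 to 0.00441 (without PN 3A, also with sham 9A left out). In PN against sham, Aqp4 turned to -0.34 (letter), and Slc1a2 to 0.02 (without sham 5B), 0.18 (without sham 9A), 0.52 (without PN 3A) and 0.83 (without both of these). With 1 library left out these ranged from -0.37 to 0.46 (Aqp4, MCAO against sham), from -1.01 to 0.0872 (Gfap), -0.27 to 0.42 (Vim) and -0.33 to 0.00441 (Gja1, all in PN against MCAO) and from -0.61 to 0.52 (Slc1a2, PN against sham). The cause was not tested.

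Over all genes, calls in MCAO against sham numbered 3 with only the 6 libraries compared or without sham 9A and PN 3A, 2 with array weights and PN 7A left out, and 1 to 3 with 1 library left out. In PN against MCAO they numbered 4 with no filter, 377 with array weights, 2 without sham 9A and PN 3A, and 1 to 4 with 1 library left out. In PN against sham they numbered 5 with array weights and 2 to 3 with 1 library left out. Members called with 1 library left out were 0 in each comparison. A fit with code numbers as replicate block called 0 genes in PN against MCAO, and 1 was called without it. The numbers were not taken to pair libraries, since the labels do not say what they mark. Deviations correlated at 0.06, -0.40 and -0.16 for codes 3, 6 and 7, and 1 of 6 libraries matched its own number best. With 3 libraries a group, these values cannot settle whether libraries are paired. Reads per gene are unknown, so what depth limits was not computed. Leaving out sham 9A and PN 3A, and array weights without PN 7A, were chosen after seeing the data.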
